A study of Mus musculus with 22 samples.

Results

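Liver transcripts of adiponectin-knockout mice were compared between ZT10, late in the light and rest phase, and ZT22, late in the dark and active phase. Zeitgeber time (ZT) counts the hours after lights on, so the livers stand 12 h apart in the daily cycle. The comparison takes the 4 arrays at ZT10 and the 4 arrays at ZT22, which are 8 of the 22 arrays of the series, and every one of the 22206 features. All mice of both times were males with a global knockout of adiponectin, a hormone that fat cells release (strain B6;129-Adipoqtm1Chan/J on C57BL/6J), aged 3 to 8 months. They were kept in groups with 12 h of light and 12 h of darkness and ate standard chow without restriction. Because both times carry the knockout and wild-type livers were not analysed here, the comparison describes time of day in the knockout and measures no effect of the knockout. Each array was taken as 1 liver, since the labels state 3 to 4 mice for each time and do not describe pools. Clariom S arrays read the transcripts of whole liver, so that a lower level may come from fewer cells of a type or from less RNA per cell, which cannot be told apart.

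Mouse liver keeps daily time with a transcriptional loop in which BMAL1 (encoded by Arntl) and CLOCK switch on the Period, Cryptochrome and REV-ERB genes, whose products in turn repress BMAL1 and CLOCK or their genes. The loop drives further transcription factors such as DBP, and these reach metabolic genes. Feeding adds a second daily signal: mice eat mainly in the dark, so the liver stores glycogen and makes lipid at night, and late in the day it draws on stores while the mice rest.

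The text calls a feature when its adjusted p lay below a threshold of 0.05 in limma's test, fitted to all 22 arrays, with the Benjamini-Hochberg adjustment taken across the 22206 features. Levels and differences are on the log2 scale, differences are ZT10 minus ZT22 with limma's standard error (SE), and 4 values in a row are arrays a to d of a time. Arrays do not allow the level of one gene to be set against that of another. As a guide to background, 1412 features for odorant and vomeronasal receptors, which liver is not known to use, had a median level of 3.48 and a 95th percentile of 4.95 in the 8 arrays.

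Of 22206 features 733 were called (3.3%), of which 255 were higher at ZT10 (1.15%) and 478 were lower at ZT10 (2.15%). Among the 12442 features with a mean above the background level at either time, 698 were called (5.61%). The called features named 235 genes that were higher at ZT10 and 442 that were lower. Their median fold was 1.98 for those higher and 2.04 for those lower, and at least 2-fold differences were found in 124 higher and 252 lower features. In 686 of the 733 called features the 4 arrays of one time all lay above the 4 of the other, which held for 2130 of all features (9.59%).

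**Figure D1:**
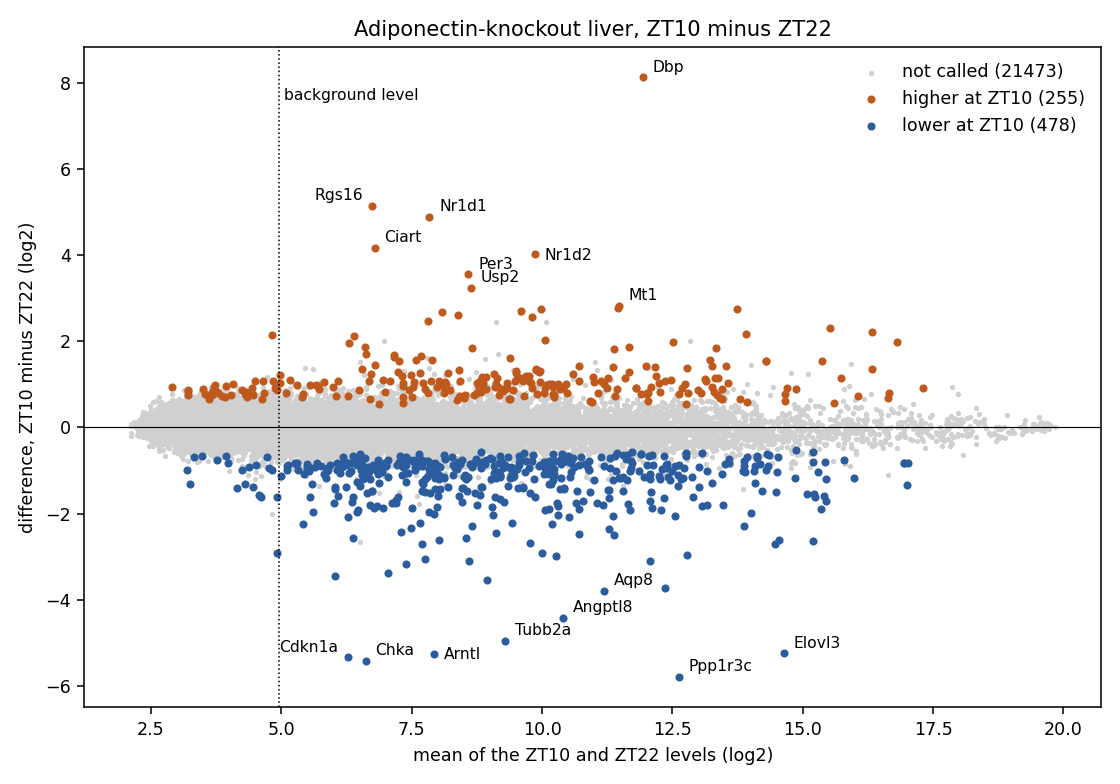
Difference between ZT10 and ZT22 (vertical axis, log2) against the mean of the levels at both times (horizontal axis, log2) for each of 22206 features. Orange points mark the 255 features that were higher at ZT10, blue points the 478 that were lower, and the dotted line the background level of 4.95. Named are the 8 called genes of largest difference in each direction whose arrays do not overlap, with predicted genes left out.

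The promoters shown belong to genes among the 8 largest differences of each direction. They were taken in order of size where the window of a RefSeq table (build GRCm38.p6, 250 bases before to 50 bases after the start) held 1 of 3 short motifs of the clock: the E-box CACGTG that BMAL1 and CLOCK bind, the D-box TTANGTAA of DBP and its relatives, or the ROR element TAGGTCA that REV-ERB and ROR receptors bind, on either strand. Capitals mark the motif. Printed are the 250 bases before the start, on the gene's strand: Ciart at chr3:95882229-95882478 (minus strand), Per3 at chr4:151044666-151044915 (minus strand), Ppp1r3c at chr19:36736605-36736854 (minus strand) and Aqp8 at chr7:123462044-123462293 (plus strand). For Arntl, whose match lies 31 bases after one of its starts, the 27 bases at chr7:113207531-113207557 (plus strand) are given.
Ciart: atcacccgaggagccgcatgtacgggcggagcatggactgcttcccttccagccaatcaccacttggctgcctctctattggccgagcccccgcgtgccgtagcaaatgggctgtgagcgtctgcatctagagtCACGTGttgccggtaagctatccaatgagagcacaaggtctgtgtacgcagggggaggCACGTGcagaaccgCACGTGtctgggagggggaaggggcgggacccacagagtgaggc
Per3: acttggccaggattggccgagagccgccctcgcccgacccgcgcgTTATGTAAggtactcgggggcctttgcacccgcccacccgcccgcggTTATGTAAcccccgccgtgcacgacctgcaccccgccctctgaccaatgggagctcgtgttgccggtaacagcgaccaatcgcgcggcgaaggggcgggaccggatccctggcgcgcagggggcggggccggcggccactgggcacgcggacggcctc
Ppp1r3c: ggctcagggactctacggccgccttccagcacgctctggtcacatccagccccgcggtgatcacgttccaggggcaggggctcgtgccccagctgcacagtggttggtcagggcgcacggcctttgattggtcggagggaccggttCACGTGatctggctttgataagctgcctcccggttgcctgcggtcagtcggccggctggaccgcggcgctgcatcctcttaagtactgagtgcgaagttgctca
Aqp8: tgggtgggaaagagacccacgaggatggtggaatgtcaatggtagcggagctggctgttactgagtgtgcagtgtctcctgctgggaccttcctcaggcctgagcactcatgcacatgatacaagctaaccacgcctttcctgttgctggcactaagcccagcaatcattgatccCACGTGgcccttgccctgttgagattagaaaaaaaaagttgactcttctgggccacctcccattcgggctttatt
Arntl: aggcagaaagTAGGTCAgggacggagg
Ciart held 3 E-boxes, Per3 held 2 D-boxes, Ppp1r3c and Aqp8 held 1 E-box each, and Arntl held 1 ROR element. No match overlapped another in these windows. The windows of Dbp, Rgs16, Nr1d1, Nr1d2, Usp2, Mt1, Chka, Cdkn1a, Tubb2a and Angptl8, also among the largest differences, held no match. Elovl3 had no window in the table.

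The table held windows for 197 of the 235 genes that were higher at ZT10, 354 of the 442 that were lower and 15691 of the 19505 measured. An E-box lay in 14.1% of the 270 windows of genes higher at ZT10, in 8.32% of the 481 windows of genes lower at ZT10, and in 8.11% of the 19143 windows of all measured genes. For the D-box the shares were 2.59%, 1.66% and 2.06% in the same order, and for the ROR element 1.11%, 3.53% and 2.26%. These shares describe letters in short windows; binding was not measured.

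Many genes of the clock and its direct outputs differed between the times. Of 18 measured core clock genes 6 were higher and 4 were lower at ZT10, and of 18 PAR bZIP factors and clock outputs 7 were higher and 6 were lower. Dbp, an activator that binds D-boxes, had the largest difference of any called gene with 15.72, 15.95, 16.43 and 15.89 at ZT10, against 8.13, 7.79, 8.14 and 7.43 at ZT22. That is a 279-fold higher level (95% interval 159 to 489, adjusted p = 9e-13). The REV-ERB receptors Nr1d1 (+4.88, SE 0.30) and Nr1d2 (+4.02, SE 0.22), the repressor Ciart and the Period gene Per3 (+3.55, SE 0.36) stood on the same side. Ciart averaged 4.70 at ZT22, under the background level, and its ZT10 mean was 15.2-fold above that level. Per1 (+1.86) and Bhlhe41 (+2.12), which encodes the repressor DEC2, were also higher at ZT10.

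On the other side stood the activators of the loop. Arntl had 5.39, 4.94, 4.89 and 5.98 at ZT10, against 10.62, 10.70, 10.53 and 10.36 at ZT22 (difference -5.25, SE 0.29, adjusted p = 1.09e-11), so its ZT10 arrays lay close to the background level. Its partners Clock (-1.82) and Npas2 (4.30 at ZT10, under the background level, against 7.76 at ZT22), the repressor Cry1 (-2.56) and Nfil3 (-2.0), a repressor that competes with DBP for D-boxes, were lower at ZT10 as well. Among the outputs Rgs16, which damps G-protein signals, was higher with 9.37, 8.61, 9.66 and 9.62 at ZT10, against 3.22, 4.36, 4.76 and 4.37 at ZT22. With its ZT22 mean under the background level, the fold against that level was at least 20.6. Usp2, a deubiquitinating enzyme, was higher (+3.24, SE 0.52), as was the cell cycle kinase Wee1 (+2.56). Cdkn1a, the cell cycle inhibitor p21, was at 3.51, 3.62, 3.58 and 3.71 at ZT10, within the range of the receptor genes, against 9.53, 8.91, 8.02 and 9.33 at ZT22. Its ZT22 mean was 16.0-fold above the background level. Each of these clock and output calls held when any one of the 8 arrays was left out.

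**Figure D2:**
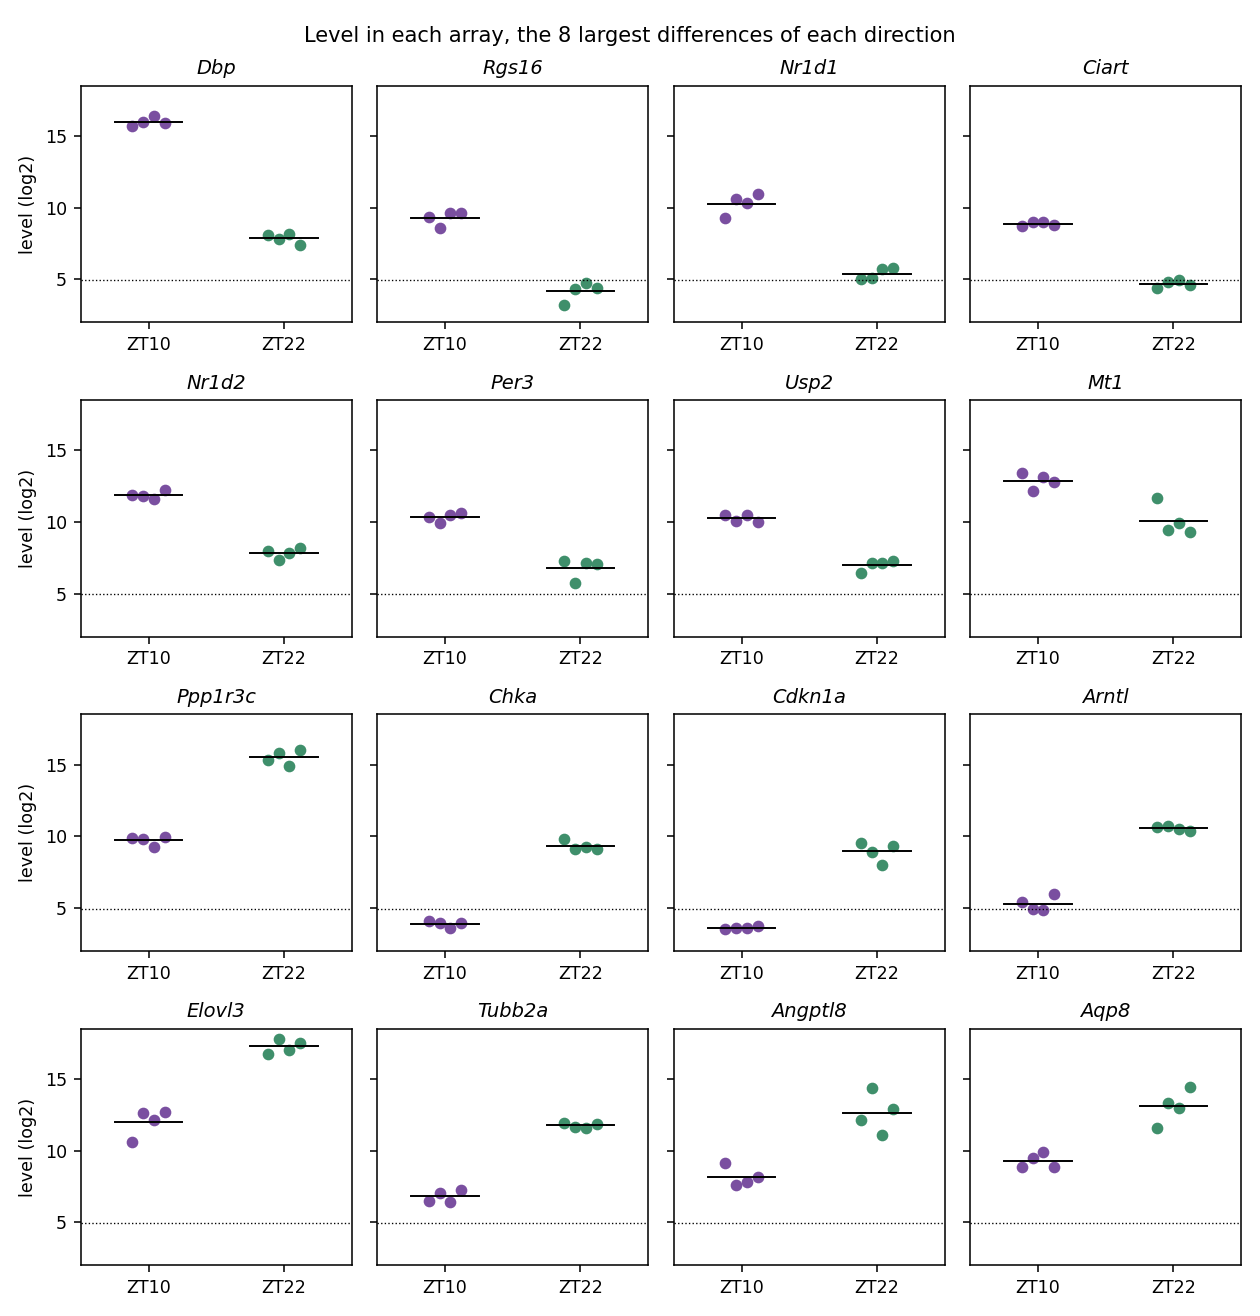
Level (log2, vertical axis) in each of the 4 arrays at ZT10 (left) and the 4 at ZT22 (right) for the 8 genes of largest difference in each direction; black bars are means and the dotted line is the background level of 4.95. The 16 genes were picked among called genes whose arrays of the 2 times do not overlap, with predicted genes left out. The ZT22 arrays of Rgs16 and Ciart and the ZT10 arrays of Chka and Cdkn1a lie near or under the background level.

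Genes outside the clock and metabolic lists were among the 8 largest differences too. Tubb2a, a beta-tubulin, had 6.49, 7.06, 6.43 and 7.24 at ZT10, against 11.96, 11.66, 11.59 and 11.86 at ZT22 (31.2-fold lower, adjusted p = 9.3e-09). Aqp8, a water channel of hepatocytes, had 8.85, 9.48, 9.92 and 8.89 at ZT10, against 11.55, 13.35, 13 and 14.45 at ZT22 (14-fold lower, adjusted p = 4.93e-06).

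Over all 52 lists of function, the 2 clock lists included, 140 of 1168 measured genes were called. Without the genes of the clock lists, 50 lists held 1132 measured genes, of which 117 were called (10.3%): 45 higher and 72 lower at ZT10. These lists were chosen with earlier results of these data known, so their shares are descriptions. They consist mostly of genes that liver expresses. The nearer yardstick for them is the share called among features above the background level at either time, 5.61%. Some lists stood near that share, such as the unfolded protein response (7.14%), mitochondrial carriers (8.0%) and adiponectin receptors and AMPK (5.88%). So did Kruppel-like factors (7.14%), the insulin, IGF and growth hormone list (7.69%) and immediate early genes (8.0%). Splicing factors (9.38%) and phase II genes (9.68%) stood a little above it. Counts near it are not read as a result about the list. In 8 lists no member was called.

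**Figure D3:**
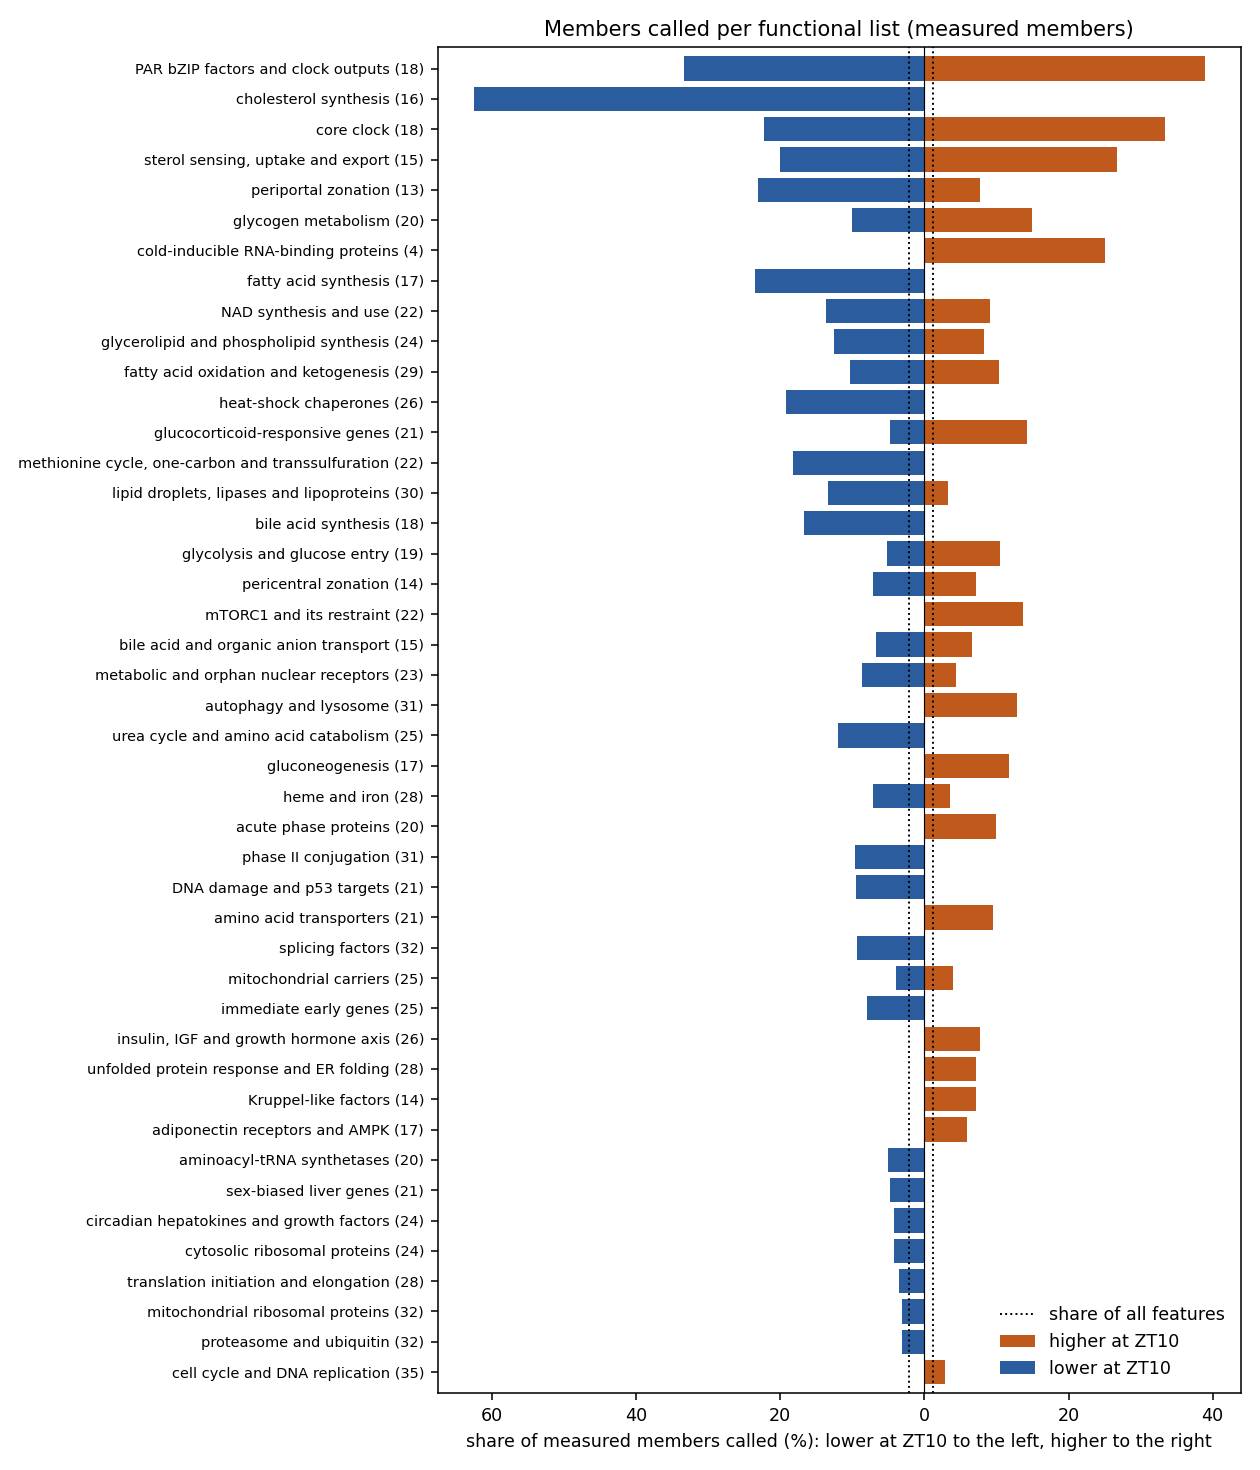
Share of the measured members of each functional list (number measured in brackets) that were called lower at ZT10 (blue, to the left) or higher at ZT10 (orange, to the right), in percent; lists without a call are left out. Dotted lines mark the shares of all features, 2.15% lower and 1.15% higher; in cholesterol synthesis 10 of 16 members were lower and none was higher.

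Transcripts of proteins that steer glycogen showed opposite differences within 1 pathway. Of 20 measured genes of glycogen metabolism 3 were higher and 2 were lower at ZT10. Ppp1r3c encodes a scaffold that brings protein phosphatase 1 to glycogen and so favours its synthesis. It had 9.87, 9.80, 9.27 and 9.97 at ZT10, against 15.33, 15.81, 14.93 and 16.05 at ZT22, which was 55.8-fold lower (95% interval 38.4 to 81.2, adjusted p = 4.1e-13). Its relative Ppp1r3b, the main such scaffold of liver, was lower too, with 12.36, 10.61, 11.09 and 11.08 at ZT10, against 13.60, 14.95, 14.13 and 14.35 at ZT22 (difference -2.97, SE 0.31). Glycogen synthase itself, Gys2, ran the other way: 13.86, 13.46, 13.51 and 13.21 at ZT10, against 11.31, 11.35, 11.91 and 11.52 at ZT22 (difference +1.99, SE 0.20, adjusted p = 7.68e-07). Stbd1, which tethers glycogen (+1.08), and Ugp2, which makes the UDP-glucose that the synthase uses (+0.79), were higher as well. The call for Ugp2 was lost without ZT10a, ZT22a, ZT22b or ZT22d (highest adjusted p = 0.0951). The remaining 15 members, among them the phosphorylase Pygl, were not called.

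In glucose production 2 of 17 genes were higher at ZT10 and none was lower. Pck1, the enzyme that commits oxaloacetate to gluconeogenesis, had 17.85, 17.99, 17.75 and 17.59 at ZT10, against 17.29, 15.13, 15.15 and 15.71 at ZT22 (difference +1.98, SE 0.38, adjusted p = 0.00231). The ZT22a array lay apart from the other ZT22 arrays and close to ZT10. Without it the adjusted p was 3.14e-05. Slc37a4, the transporter that carries glucose 6-phosphate into the endoplasmic reticulum, was at 14.13, 13.78, 14.09 and 13.80 at ZT10, against 12.22, 13.07, 12.60 and 13.33 at ZT22 (+1.15, SE 0.23). Of 19 genes of glycolysis and glucose entry 2 were higher and 1 was lower. Pfkfb3, which makes the activator of phosphofructokinase, had 9.92, 9.23, 9.32 and 9.23 at ZT10, against 6.56, 7.23, 6.41 and 6.75 at ZT22 (+2.69, SE 0.34, adjusted p = 1.54e-05). Pdhb, a subunit of pyruvate dehydrogenase, was slightly higher (+0.66) and the isomerase Tpi1 slightly lower (-0.79). Both calls were lost without ZT10b, ZT10c, ZT22b or ZT22d and, for Pdhb, also without ZT10a, ZT10d or ZT22c, and for Tpi1 without ZT22a (highest adjusted p = 0.143 and 0.119).

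Most measured enzymes of cholesterol synthesis were lower at ZT10. Of 16 measured enzymes of the pathway from acetyl units to sterols, 10 were lower at ZT10 and none was higher, the other 6 had negative differences too, and the median difference was -0.96, beside 0.02 over all features. Hmgcs1, the enzyme that makes HMG-CoA, had 13.78, 14.31, 15.30 and 15.02 at ZT10, against 16.67, 16.22, 16.16 and 16.17 at ZT22 (difference -1.70, SE 0.24, adjusted p = 7.06e-05). Further along the pathway, the kinase Pmvk had 8.88, 9.42, 9.34 and 9.47 at ZT10, against 12.26, 10.26, 11.23 and 11.54 at ZT22 (difference -2.04, SE 0.30). The squalene enzymes Fdft1 (-1.23), Sqle (-1.44) and Lss (-1.45) and the reductase Dhcr7 (-1.87), which makes cholesterol in the last step of one branch, were lower by similar amounts. Mvd, Idi1, Fdps and Ebp had differences between -1.11 and -0.70. Without ZT22a the count was 9, with Fdps lost (adjusted p = 0.0612), over the 8 omissions of 1 array it lay between 8 and 10, and at an adjusted p under 0.01 it was 6. Idi1 was lost without ZT10a (adjusted p = 0.0699), Ebp without ZT22d (0.0509) and Mvd without ZT10a, ZT22b or ZT22c (up to 0.103).

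Regulators and transporters of sterols split by role. Of 15 measured, 3 were lower and 4 were higher at ZT10. Insig2, which helps to hold the SREBP precursors in the endoplasmic reticulum, had 8.15, 8.59, 8.32 and 9.05 at ZT10, against 10.91, 11.66, 11.65 and 11.58 at ZT22 (7.58-fold lower, adjusted p = 3.9e-09). Insig1 (-1.19, SE 0.21) and Srebf2 (-0.67, SE 0.18), the activator of the synthesis genes, were lower, although the call for Srebf2 held only when ZT10b or ZT10c was the array left out. The genes higher at ZT10 move sterol out of cells or between membranes. Abcg5 had 12.60, 11.81, 11.97 and 12.81 at ZT10, against 11.75, 9.50, 10.33 and 10.32 at ZT22 (+1.82, SE 0.34). Abcg8 encodes the partner of Abcg5 in the pump that exports sterols into bile, and had 12.69, 12.39, 12.47 and 12.82 at ZT10, against 11.74, 10.13, 10.25 and 10.80 at ZT22 (+1.86, SE 0.26, adjusted p = 6.58e-05). In both genes ZT22a was the highest ZT22 array. Npc1, which releases cholesterol from lysosomes (+1.30, SE 0.25), and Stard4, a carrier of cholesterol (+0.80, SE 0.20, lost without ZT10b, ZT22b or ZT22d, adjusted p up to 0.0869), completed the group.

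**Figure D4:**
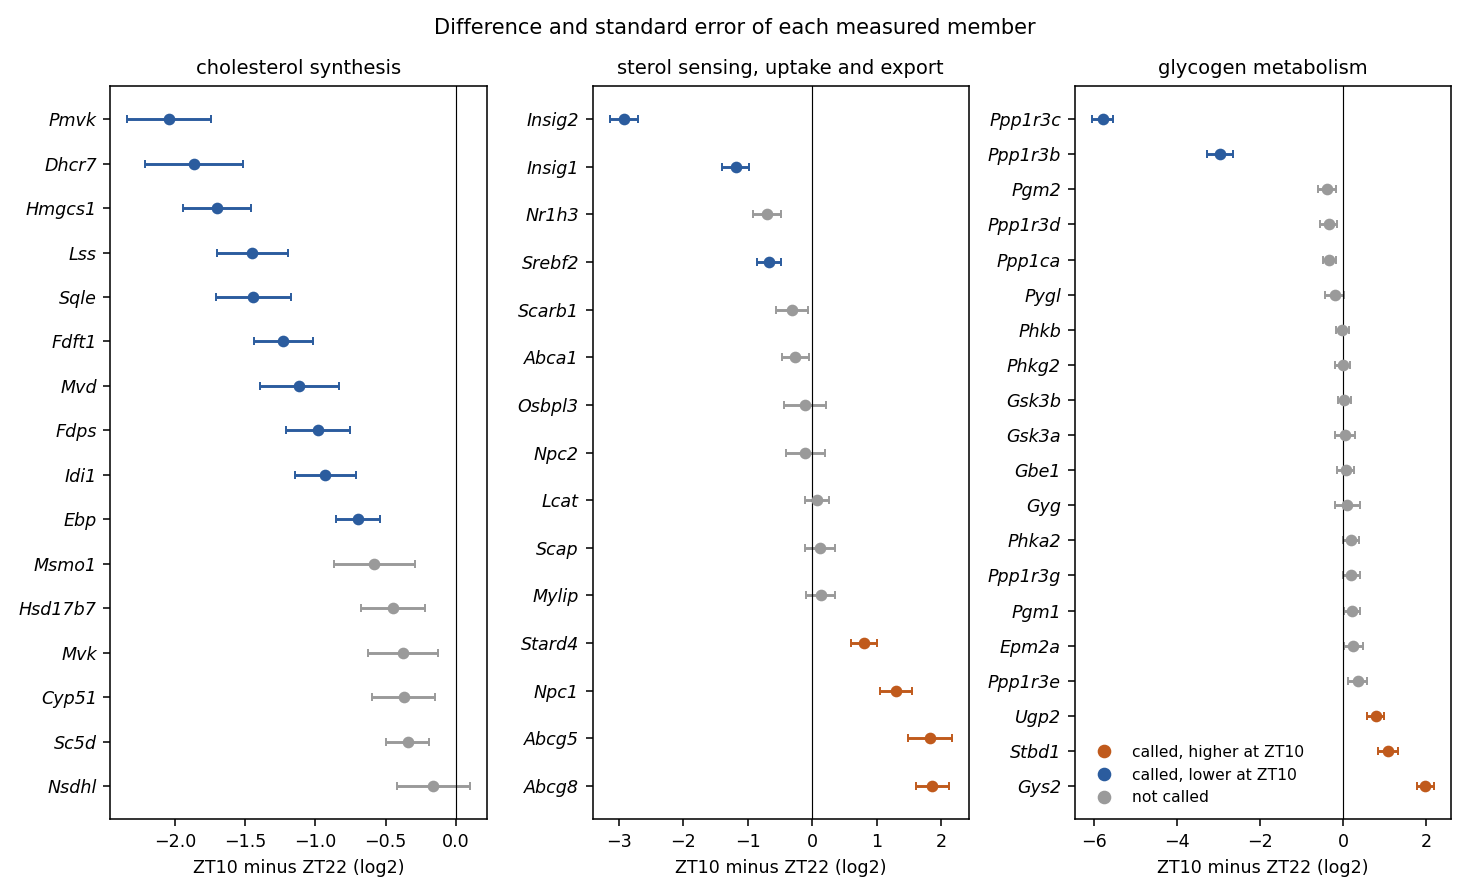
Difference ZT10 minus ZT22 (log2, horizontal axis) with its standard error for each measured member of 3 lists. Blue members were called lower at ZT10, orange members higher, and grey members were not called; all 16 enzymes of cholesterol synthesis lie left of 0, and sterol and glycogen genes reach from -5.80 in Ppp1r3c to +1.99 in Gys2.

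Of 18 genes of bile acid synthesis and its control 3 were lower at ZT10 and none was higher. Akr1d1, a reductase of the sterol ring, had 14, 13.33, 13.24 and 13.11 at ZT10, against 14.56, 14.49, 13.93 and 14.32 at ZT22 (-0.91, SE 0.21). Nr0b2, the repressor SHP, had 10.18, 8.94, 7.93 and 9.68 at ZT10, against 9.57, 12.10, 11.33 and 11.29 at ZT22 (-1.89, SE 0.48), so that ZT10a lay above ZT22a. Its call was lost without ZT10b, ZT10c, ZT22b, ZT22c or ZT22d (adjusted p up to 0.119), and that of Hsd3b7 (-0.94) in 6 of the 8 omissions, all but ZT10b and ZT10d (up to 0.155). Cyp7a1, the rate-limiting enzyme, had a difference of +0.95 and was not called (adjusted p = 0.198). Among 15 transporters of bile acids and organic anions Abcb11, the bile salt export pump, was lower with 13.90, 13.80, 13.77 and 13.56 at ZT10, against 14.40, 14.83, 14.67 and 14.56 at ZT22 (-0.86, SE 0.16). Abcc2, which exports conjugates into bile, was higher with 17.15, 17.03, 16.98 and 17.07 at ZT10, against 16.15, 16.17, 16.46 and 16.26 at ZT22 (+0.80, SE 0.15).

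Fatty acid synthesis had 4 of 17 members lower at ZT10 and none higher. Elovl1, an elongase of long saturated chains, was the firmest, with 11.36, 11.38, 11.71 and 11.66 at ZT10, against 12.69, 12.54, 12.47 and 12.78 at ZT22 (-1.09, SE 0.19, adjusted p = 0.00105). Acly, which makes cytosolic acetyl-CoA, had 13.87, 13.58, 14.48 and 13.02 at ZT10, against 16.43, 15.05, 14.46 and 15.00 at ZT22 (-1.50, SE 0.33), so that ZT10c and ZT22c stood at about the same level. Fasn, the fatty acid synthase (-1.04, adjusted p = 0.0439), kept its call only when ZT10c was the array left out, and Acss2, which activates acetate (-1.15), lost it without ZT10d, ZT22a, ZT22b or ZT22d (up to 0.0706). Without ZT22a 2 members were lower and 1 was higher. Without the 5 arrays of high Tff3 in the series, ZT22a among them, 1 was lower and 1 was higher, and the call for Acly was lost too (adjusted p = 0.0541). Elovl3, which elongates fatty acids and is listed with the clock outputs, had a much larger difference: 10.60, 12.64, 12.12 and 12.71 at ZT10, against 16.76, 17.76, 17.03 and 17.51 at ZT22 (38.0-fold lower, adjusted p = 2.68e-10).

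Genes that build glycerolipids held large differences in both directions. Of 24 measured, 2 were higher and 3 were lower at ZT10. Chka, the kinase that starts phosphatidylcholine synthesis from choline, had 4.09, 3.95, 3.61 and 3.97 at ZT10, against 9.81, 9.14, 9.26 and 9.12 at ZT22 (difference -5.43, SE 0.45). All 4 ZT10 arrays were under the background level, and the ZT22 mean was 20.9-fold above that level. The acyltransferases that add the first and second chains, Gpam and Agpat2, were lower: Agpat2 had 14.59, 14.26, 14.67 and 14.93 at ZT10, against 16.16, 16.10, 16.24 and 16.35 at ZT22 (-1.60, SE 0.22), and Gpam differed by -0.81 (SE 0.19; adjusted p = 0.0529 without ZT10b). The phosphatases of the next step were higher instead. Lpin1 had 12.47, 11.87, 13.65 and 13.41 at ZT10, against 9.67, 9.56, 9.75 and 11.30 at ZT22 (+2.78, SE 0.43, adjusted p = 0.000189), and Lpin2 differed by +1.84 (SE 0.27). ZT22d was the highest ZT22 array in Lpin1.

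Fat breakdown and storage gave a mixed picture by gene. Among 29 genes that oxidize fatty acids or make ketone bodies 3 were higher and 3 were lower at ZT10. Ppara, the receptor that switches on oxidation genes, had 13.40, 13.47, 13.33 and 13.67 at ZT10, against 11.55, 11.72, 12.65 and 12.43 at ZT22 (+1.38, SE 0.25). Cpt1a, which lets fatty acids into mitochondria, had 13.70, 14.16, 14.09 and 14.07 at ZT10, against 13.07, 12.11, 12.27 and 12.33 at ZT22 (+1.56, SE 0.24), and the ketone enzyme Bdh1 was higher too (+0.80, lost without ZT22b, adjusted p = 0.0532). Cyp4a14, a fatty acid hydroxylase induced through PPARA, ran opposite to Ppara, with 12.98, 13.88, 13.61 and 12.00 at ZT10, against 15.90, 14.96, 15.70 and 16.72 at ZT22 (-2.70, SE 0.57). Pdk4, which restrains pyruvate dehydrogenase (-2.09, SE 0.32), and the acetyltransferase Crat (-1.65, SE 0.28) were also lower. In all 6 genes the arrays of the 2 times did not overlap. That held for 686 of the 733 called features and for 9.59% of all features.

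Of 30 genes of lipid droplets, lipases and lipoproteins 1 was higher and 4 were lower at ZT10. Pnpla2, the triglyceride lipase ATGL, had 12.08, 12.73, 12.42 and 11.97 at ZT10, against 11.36, 10.72, 11.12 and 10.87 at ZT22 (+1.28, SE 0.22, adjusted p = 0.000696). G0s2, the protein that inhibits this lipase, had 8.59, 8.89, 7.04 and 7.09 at ZT10, against 10.24, 11.50, 9.52 and 10.12 at ZT22 (-2.44, SE 0.52, adjusted p = 0.0065). Lipase and inhibitor thus differed in opposite directions. Angptl8, a feeding-induced hepatokine that curbs lipoprotein lipase, had 9.14, 7.62, 7.84 and 8.17 at ZT10, against 12.11, 14.39, 11.08 and 12.87 at ZT22 (21.4-fold lower, 95% interval 8.94 to 51.3). The lysosomal lipase Lipa (-1.0) and the droplet protein Plin5 (-0.89) were lower, the call for Plin5 being lost without ZT10b, ZT10c, ZT10d or ZT22a (adjusted p up to 0.0623).

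Called genes of amino acid catabolism and one-carbon metabolism were lower at ZT10, while the called amino acid transporters were higher. In the urea cycle and amino acid catabolism 3 of 25 were lower (12.0%) and none was higher. The methionine cycle, one-carbon and transsulfuration list had 4 of 22 lower (18.2%), none higher and 20 negative differences (median -0.35). Of features above the background level 5.61% were called. Hal, the first enzyme of histidine breakdown, had 14.64, 14.53, 14.33 and 14.18 at ZT10, against 16.59, 16.17, 15.84 and 15.54 at ZT22 (-1.61, SE 0.22, adjusted p = 3.59e-05). Cth, which makes cysteine from cystathionine, had 15.81, 15.29, 15.30 and 15.15 at ZT10, against 17.33, 16.75, 16.29 and 15.90 at ZT22 (-1.18, SE 0.25). Shmt1, the serine hydroxymethyltransferase of the cytosol, was lower by a like amount (-1.01). Bhmt (-1.35) and Bhmt2 (-0.64), which methylate homocysteine, lost their calls in 5 and 6 of the 8 omissions of 1 array, ZT22a among them (adjusted p up to 0.15 and 0.0841), and so did Slc25a15 (-0.90), the ornithine carrier, in 5 (up to 0.145). Without ZT22a the methionine list had 2 members lower. Nags, which makes the activator of the urea cycle (-0.82), was lost without ZT10b or ZT22b (up to 0.056). Of 21 amino acid transporters 2 were higher at ZT10 (9.52%, beside 5.61% of features above the background level) and none was lower. Both carry glutamine and other neutral amino acids: Slc38a2 differed by +1.55 (SE 0.23), and Slc38a3 had 17.68, 17.71, 17.92 and 17.77 at ZT10, against 17.62, 16.81, 16.37 and 16.59 at ZT22 (+0.92, SE 0.20).

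Of 22 genes of the synthesis and use of NAD, the redox cofactor, 2 were higher and 3 were lower at ZT10, and 17 were not called. The salvage enzyme Nampt had 11.87, 11.75, 11.20 and 11.42 at ZT10, against 11.19, 9.51, 10.55 and 10.28 at ZT22 (+1.18, SE 0.28), with the call lost without ZT10a, ZT10b or ZT22b (adjusted p up to 0.0715). Nmrk1, which salvages nicotinamide riboside, was higher by 0.91 (SE 0.20). The lower genes belong to tryptophan breakdown. Afmid differed by -1.15 (SE 0.21), Kynu by -1.0 (SE 0.21), and Acmsd, which diverts the pathway away from NAD, had 9.04, 8.20, 9.25 and 8.65 at ZT10, against 13.88, 12.21, 10.92 and 10.05 at ZT22 (-2.98, SE 0.76). The spread of Acmsd over the ZT22 arrays was wide, and its call was lost without ZT10b, ZT10d, ZT22a or ZT22b (adjusted p up to 0.121). Slc25a47, a liver carrier of the mitochondrial membrane, was the member of largest difference among 25 mitochondrial carriers, with 14.79, 15.41, 15.10 and 15.18 at ZT10, against 12.01, 11.88, 12.19 and 13.37 at ZT22 (6.76-fold higher, adjusted p = 2.04e-07). The other called carrier, Slc25a48 (-0.93), lost its call in 5 of the 8 omissions, ZT22a among them (up to 0.179).

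Heat-shock chaperones were lower at ZT10 in 5 of 26 cases (19.2%, beside 5.61% of features above the background level), and none was higher. Hspb1, the small chaperone HSP27, had 5.91, 6.72, 6.20 and 6.09 at ZT10, against 10.14, 8.85, 9.06 and 9.10 at ZT22 (8.33-fold lower, adjusted p = 5.92e-06). Hsp90aa1, the inducible HSP90, had 12.79, 12.78, 12.97 and 13.49 at ZT10, against 14.69, 14.66, 15.56 and 15.04 at ZT22 (-1.98, SE 0.37). Hspa4l (-1.58) and Fkbp4 (-1.22), an HSP90 cochaperone, were lower as well, and Chordc1 (-0.80) kept its call only when ZT10a was the array left out. Rbm3, an RNA-binding protein that cold induces, was the called member among 4 such genes and was higher, with 12.65, 12.88, 12.83 and 12.77 at ZT10, against 12.07, 11.74, 11.30 and 11.26 at ZT22 (+1.19, SE 0.23). Body temperature was not measured. In the unfolded protein response 2 of 28 were higher (7.14%, near the 5.61% of features above the background level). They were Herpud1, which helps to remove misfolded proteins (+1.36, SE 0.25), and Trib3 (+0.73, SE 0.17, adjusted p = 0.0627 without ZT22d).

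Autophagy genes stood on the ZT10 side where called. Of 31 genes 4 were higher (12.9%, beside 5.61% of features above the background level) and none was lower. Ulk1, the kinase that starts autophagy, had 8.30, 8.77, 8.74 and 8.82 at ZT10, against 6.55, 7.26, 6.95 and 7.64 at ZT22 (2.94-fold higher, adjusted p = 6.14e-05). Gabarapl1, a protein of the autophagosome membrane, had 14.60, 14.74, 13.49 and 14.13 at ZT10, against 12.94, 11.87, 13.15 and 13.26 at ZT22 (+1.44, SE 0.31). Bnip3, a receptor for mitochondria, differed by +1.07 (SE 0.23), and Atg14, a part of the complex that starts autophagosomes, by +0.66, a call lost without ZT10a, ZT10d, ZT22a or ZT22c (adjusted p up to 0.0897). Of 22 genes around mTORC1, the kinase complex that restrains autophagy when nutrients abound, 3 were higher. All 3 encode folliculin or its partners: Fnip1 had 9.57, 9.17, 9.17 and 9.86 at ZT10, against 8.13, 7.85, 8.58 and 8.50 at ZT22 (+1.18, SE 0.21), Fnip2 differed by +1.27 (adjusted p = 0.0533 without ZT22a) and Flcn by +1.08 (lost without ZT10c, ZT10d or ZT22b, up to 0.0595). Among 17 genes of the adiponectin receptors and AMPK the kinase subunit Prkaa2 was called, at +0.69 (SE 0.19, adjusted p = 0.0494), and the call held only when ZT10b or ZT22c was the array left out. The receptors Adipor1 (+0.09) and Adipor2 (-0.23) were not called.

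Signalling and transcription factors beyond the clock gave few calls. Of 21 glucocorticoid-responsive genes 3 were higher and 1 was lower at ZT10. Mt1, a metal-binding metallothionein, had 13.45, 12.15, 13.15 and 12.76 at ZT10, against 11.65, 9.42, 9.91 and 9.28 at ZT22 (+2.81, SE 0.64; adjusted p = 0.0521 without ZT22d). Tsc22d3, the glucocorticoid-induced leucine zipper GILZ, ran the other way, with 10.06, 9.50, 9.09 and 9.01 at ZT10, against 10.90, 11.97, 10.62 and 11.19 at ZT22 (-1.75, SE 0.41, lost without ZT10c or ZT22b, up to 0.061). Fkbp5, another such gene (+1.06), kept its call only when ZT22b was the array left out, and Lpin1, given above, was the remaining member. Among 25 immediate early genes 2 were lower and none was higher. Zfp36l1, which promotes decay of mRNAs, had 12.59, 12.84, 12.58 and 12.86 at ZT10, against 15.30, 14.92, 14.81 and 15.01 at ZT22 (4.90-fold lower, adjusted p = 1.04e-05), and the antiproliferative gene Btg1 differed by -1.58 (SE 0.23). Klf13 was the called gene among 14 Kruppel-like factors (+1.20, SE 0.17). Of 23 nuclear receptors Rxra, the common partner of metabolic receptors, was higher (+0.77, SE 0.16), Nr2f6 was lower (-0.98, SE 0.21), and Rxrg was lower by -0.88 (lost without ZT10b, ZT10c or ZT22d, up to 0.0893). In the insulin, IGF and growth hormone list Akt1 (+0.77) and Igfbp4 (+0.57) were higher among 26, both losing their calls in several omissions (up to 0.0731 in 4 and up to 0.123 in 6).

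Genes of detoxification and blood proteins were mostly not called. Of 31 phase II genes 3 glutathione transferases were lower: Gstt3 had 10.18, 9.43, 10.33 and 9.83 at ZT10, against 10.94, 11.38, 12.05 and 12.20 at ZT22 (-1.70, SE 0.26), Gstt1 differed by -0.96 (lost without ZT10b or ZT22d, up to 0.0793) and Gsta2 by -1.81 (lost without ZT10c or ZT22a, up to 0.0696). Gstt1 and Gstt3 are related genes, and their probes may share signal. None of 34 drug-metabolizing cytochromes P450, 22 NRF2 and antioxidant genes, 32 complement and coagulation genes or 14 circulating carriers was called. The lowest adjusted p in these lists belonged to Cyp2b10 (-2.65, 0.093), Gss (+0.90, 0.0593), C4b (+0.48, 0.122) and Afm (-0.34, 0.278). Of 20 acute phase genes Fgl1 (+1.15) and Steap4 (+1.02) were higher, and both calls were lost without ZT10c, ZT10d, ZT22b or ZT22d, and for Steap4 also without ZT10b, ZT22a or ZT22c (up to 0.0786 and 0.139). In the heme and iron list Hjv, the co-receptor that controls hepcidin, had 10.32, 10.05, 10.27 and 10.04 at ZT10, against 11.63, 11.99, 11.55 and 11.50 at ZT22 (-1.50, SE 0.20). Tfrc (-1.15, up to 0.0807) lost its call without ZT10c, ZT22a or ZT22c, and Slc39a14 (+0.86, up to 0.119) without ZT10c, ZT10d, ZT22a, ZT22b or ZT22c. Alas1, the rate-limiting enzyme of heme synthesis and listed with the outputs, had 17.54, 17.28, 17.30 and 17.56 at ZT10, against 16.60, 14.35, 15.25 and 14.67 at ZT22 (+2.20, SE 0.55), a call that held only when ZT22a was the array left out.

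The machinery that makes and breaks down protein and energy showed small differences. Of 24 cytosolic ribosomal proteins 1 was called, Rps15 (-0.62, lost in 5 omissions, up to 0.149), while 23 had negative differences with a median of -0.20. None of 35 ribosome biogenesis genes, 31 genes of transport from the endoplasmic reticulum to the Golgi, 34 of the respiratory chain and ATP synthase or 16 of the TCA cycle was called. Their lowest adjusted p was found in Rrn3 (+0.81, 0.0628), Mcfd2 (-0.72, 0.0619), Ndufs7 (-0.84, 0.0662) and Idh2 (-0.67, 0.0512). In the respiratory chain 30 of 34 differences were negative, with a median of -0.18. A single member was lower in each of 4 further lists, 32 proteasome genes (Psmd4, -0.58), 32 mitochondrial ribosomal proteins (Mrps27, -0.77), 28 translation factors (Eif1a, -0.95) and 20 aminoacyl-tRNA synthetases (Tars, -1.38). Psmd4 and Mrps27 lost their calls in 6 of the 8 omissions each, ZT22a among them (adjusted p up to 0.127 and 0.147). Of 32 splicing factors 3 were lower: Tra2b had 11.33, 11.36, 11.29 and 11.47 at ZT10, against 12.55, 12.39, 12.22 and 12.31 at ZT22 (-1.0, SE 0.15), Tra2a differed by -1.35 (SE 0.25) and Hnrnpc by -0.95 (SE 0.16).

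Lists of zonation and growth held between 1 and 4 calls each. The shares ran from 2.86% in the cell cycle to 30.8% in periportal genes, beside 5.61% of features above the background level. Of 13 periportal genes Pck1 was higher and 3 were lower: Gldc, which breaks down glycine (-2.06, SE 0.22), Hal, given above, and Cdh1, E-cadherin (-1.35, kept only when ZT10c was the array left out). Of 14 pericentral genes Avpr1a, a vasopressin receptor, was lower, with 8.20, 8.01, 7.85 and 8.06 at ZT10, against 8.45, 10.65, 11.07 and 10.10 at ZT22 (-2.04, SE 0.38), and Znrf3 was higher (+0.94, lost in 5 omissions, ZT22a among them, up to 0.16). Ccne1, cyclin E1, was the called gene among 35 of the cell cycle, with 6.59, 7.87, 8.21 and 7.37 at ZT10, against 6.15, 6.31, 5.93 and 5.88 at ZT22 (+1.44, SE 0.30). Beside Cdkn1a the DNA polymerase Polk was lower among 21 genes of DNA damage and p53 (-0.84, lost without ZT10c, ZT10d, ZT22b or ZT22d, up to 0.0845). Fgf1 was the called gene among 24 hepatokines and growth factors (-1.17, lost in 6 omissions, up to 0.0879), and Elovl3 among 21 sex-biased genes.

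The called features were also placed among the means of all 6 times. These ranks include the ZT10 and ZT22 arrays by which the features were called, which favours extremes at both times, so the counts are a description. Of the 255 features higher at ZT10, 195 had their highest mean of the 6 times at ZT10 and 125 their lowest at ZT22. Of the 478 lower, 365 had their lowest mean at ZT10 and 319 their highest at ZT22. The other pairs of times 12 h apart share no array with ZT10 and ZT22, although all come from 1 fit. Among the 255 higher features 25 were also called higher at ZT6 than at ZT18 (9.8% of them and 28.7% of the features called so there) and 8 lower. Between ZT14 and ZT2 63 were called higher at ZT14 (24.7%, and 12.9% of the features called so there) and 14 lower. Among the 478 lower features 39 were also lower at ZT6 (8.16% and 23.6%) and 3 higher, and 108 were lower at ZT14 than at ZT2 (22.6% and 23.5%) and 23 higher. Over all features 0.392% were called higher at ZT6 than at ZT18 and 0.743% lower. Likewise 2.2% were called higher at ZT14 than at ZT2 and 2.07% lower. In either direction 1.13% were called between ZT6 and ZT18 and 4.27% between ZT14 and ZT2.

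**Figure D5:**
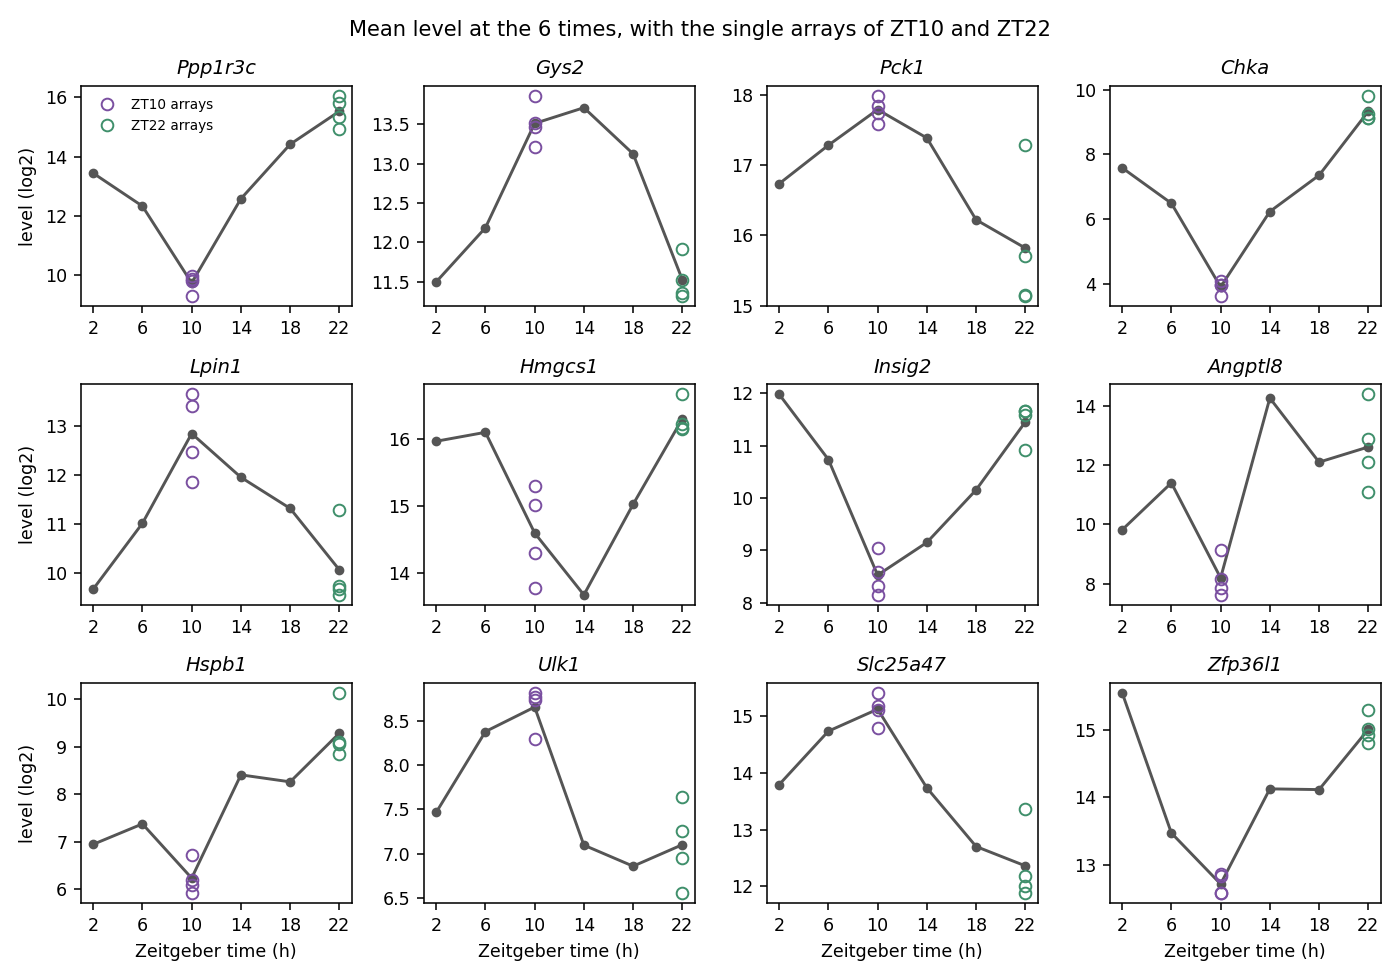
Mean level (log2, vertical axis, with its own range in each panel) at the 6 zeitgeber times (horizontal axis, h) for 12 genes, with open circles for the 4 arrays at ZT10 and the 4 at ZT22. Ppp1r3c and Chka are lowest at ZT10 and highest at ZT22, Pck1 and Slc25a47 the reverse, while Hmgcs1 is lowest and Gys2 and Angptl8 are highest at ZT14, and Insig2 and Zfp36l1 are highest at ZT2.

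The daily curves differed in shape. The mean of Ppp1r3c was 13.44, 12.32, 9.73, 12.57, 14.41 and 15.53 at ZT2, ZT6, ZT10, ZT14, ZT18 and ZT22, so the pair of times spans its whole range, and Chka had the same order of extremes. Hmgcs1 had means of 15.97, 16.10, 14.60, 13.68, 15.03 and 16.30 at the same times, with its lowest value after ZT10. Angptl8 had means of 9.82, 11.40, 8.19, 14.26, 12.10 and 12.61, and so reached its highest value at ZT14, shortly after lights off. Ulk1 had means of 7.46, 8.38, 8.66, 7.10, 6.86 and 7.10, high through the middle and end of the light phase.

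The 8 arrays correlated between 0.981 and 0.993, and 0 pairs were identical. The targeted gene Adipoq had 3.46, 3.52, 3.47 and 3.30 at ZT10, against 3.68, 4.39, 3.91 and 3.99 at ZT22, all under the background level (-0.56, adjusted p = 0.22). Array ZT22a stood apart for Tff3, a secreted trefoil peptide, with 11.42, against 3.84, 2.95 and 2.50 in the other ZT22 arrays and 4.57, 3.17, 4.73 and 3.68 at ZT10. Without ZT22a 591 features were called, 523 of them among the 733. Hepatocyte markers were high in all 8 arrays, with none of 10 called. None of 12 Kupffer cell, 12 lymphocyte, 10 neutrophil, 5 erythroid or 10 pancreatic acinar markers was called, and 1 of 9 adipocyte markers was, Nrg4 (+2.62). The summed level of the 13 markers of sinusoidal endothelium was 13.42 to 13.83 at ZT10, against 14.06 to 14.34 at ZT22, all 13 differences were negative (median -0.42) and Cdh5 was called (-0.71, lost in 6 omissions, ZT22a among them, up to 0.156). For 12 stellate cell and matrix markers, none of them called, the sum was 13.95 to 14.40 at ZT10, against 14.64 to 15.08 at ZT22. That sum rests mainly on Dcn (14.01 at ZT10, against 14.83 at ZT22), the mean log2 level of the list overlapped between the times (7.04 to 7.27 at ZT10, against 7.23 to 7.62 at ZT22), and Col1a1, Col3a1 and Hand2 had positive differences. For 8 cholangiocyte markers it was 11.38 to 11.97 at ZT10, against 12.26 to 12.84 at ZT22, a sum that rests mainly on Tm4sf4 (11.68 at ZT10, against 12.34 at ZT22, not called), with 1 call, Sox9 (-1.88, SE 0.35), and with Krt19, Epcam, Cftr and Cldn7 under the background level at both times. The mean log2 level of the cholangiocyte list did not overlap between the times (5.44 to 5.88 at ZT10, against 5.94 to 6.30 at ZT22). That of sinusoidal endothelium did not overlap either (8.57 to 8.87 at ZT10, against 9.13 to 9.37 at ZT22). Among the cholangiocyte markers Sox9, Pkhd1 (-0.735) and Tm4sf4 had the largest negative differences. Krt7, above the background level (5.89 at ZT10, against 5.82 at ZT22), and Epcam (+0.08) had positive differences, and Krt19 had equal means. The part of these cell types in the differences given here was not tested.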

How the data were processed

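RNA of whole liver was measured on Clariom S arrays, per the labels' protocols. The authors deposited 1 value per feature and array on a log2 scale. The base is not stated and was read as log2 from the range of the values. For software and normalization: not given in the sources used here. No further normalization was applied. Array medians lay between 5.30 and 5.36.

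A model with a mean for each of 6 times was fitted to all 22 arrays with limma 3.58.1 (lmFit and eBayes, R 4.3.3), with Benjamini-Hochberg adjustment across 22206 features. No source says more than 3 to 4 mice per time, so the spread behind each p-value is that between these samples and may be technical. For a gene with several features the one of highest mean was used. The comparison, the gene lists and the markers were chosen with earlier results of these data known. Named by rule were the 8 called genes of largest difference in each direction whose arrays do not overlap. Predicted genes, Rik clones and accessions were left out. In each list up to 3 called members of largest difference were named or, with none, the member of lowest adjusted p. The text adds the other called members and some that were not called. Of 1282 listed genes 1168 were measured, and the others were not analysed here. Promoters came from RefSeq (GRCm38.p6). The scripts were tested on simulated data. The alternatives are given in the closing section.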

Additional observations from a re-analysis of the deposited data

Results flagged for a closer look

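In 12 of 222 groups of 4 arrays tested, 1 array stood far from the other 3 (Dixon's test), where chance gives about 1 in 20. Of these, 5 were in ZT22a, 2 each in ZT10a and ZT10b, and 1 each in ZT22b, ZT22c and ZT22d.

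At ZT10, Pfkfb3 was at 9.92 in ZT10a, against 9.23 to 9.32 in the other ZT10 arrays, and Ulk1 was at 8.30 in ZT10a, against 8.74 to 8.82. In ZT10b Hspa4l was at 7.74, against 8.09 to 8.14, and Prkaa2 at 13.46, against 13.83 to 13.90. In ZT22a Usp2 was at 6.47, against 7.14 to 7.27 in the other ZT22 arrays, Hmgcs1 at 16.67, against 16.16 to 16.22, and Insig2 at 10.91, against 11.58 to 11.66. Fgf1 was at 11.69 in ZT22a, against 12.17 to 12.20, and Tff3 at 11.42, against 2.50 to 3.84. Per3 was at 5.73 in ZT22b, against 7.06 to 7.31, Hnrnpc at 13.19 in ZT22c, against 12.76 to 12.79, and Lpin1 at 11.30 in ZT22d, against 9.56 to 9.75.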

How the results depend on the processing

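Among the called features that each of the 18 alternatives tested, 0 changed sign; 62 of the 733 were not tested with features above the median level only. The count of 733 was 726 with only the 8 arrays of the 2 times, 719 with arrays centred on their medians, 752 after quantile normalization, 830 with a trended and robust prior, 979 with features above the median level, 1033 with array weights, 725 with at least 1.5-fold and 771 without the 5 arrays of high Tff3. Without those 5 the calls were 4 beside 2 in mitochondrial carriers, 7 beside 4 in glucocorticoid-responsive genes, 5 beside 2 in acute phase genes and 6 beside 3 in phase II genes. After quantile normalization 42% of the calls were higher at ZT10, beside 34.8%. At an adjusted p under 0.01 the count was 364, with 118 higher and 246 lower at ZT10, and the share with their extreme mean of the 6 times at ZT10, a value that the choice of features favours, was 80.8%, beside 76.4%. Leaving out 1 array gave 532 to 627 calls. With the array letter as a replicate block 678 were called. The letters are not stated to pair the samples. The deviations of same-letter arrays correlated at 0.00982, -0.0633, -0.0391 and 0.0547, and those of ZT10c and ZT22b, of unlike letters, at 0.121. So few values cannot exclude a pairing by letter. Of the 110 genes named by rule that all 18 alternatives tested, 69 kept direction and side of the threshold and 41 did not, with 0 reversed, and Adipoq, tested in 17, kept both; the cause was not tested. With 4 arrays a time small differences may be missed, and under the background level none can be read as a change.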

Other observations

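The following 7 gene groups were put together after values had been seen, so their counts are descriptions. Beside them stand the 3.3% called of all features and the 5.61% called of features above the background level. Of 28 measured junction genes 7 were lower at ZT10 and none was higher, while 21 were not called. Cldn1, a claudin of the tight junctions around bile canaliculi, had 10.39, 10.35, 10.57 and 10.77 at ZT10, against 13.82, 13.52, 13.66 and 13.48 at ZT22 (8.57-fold lower, adjusted p = 1.62e-08). Tjp3 (-2.22), Cgn (-1.44) and Nectin1, further junction proteins, were lower too. Of 38 cytoskeletal genes 12 were lower and 1 was higher, with 34 negative differences (median -0.54). Palld, which bundles actin, had 10.74, 10.74, 10.59 and 10.94 at ZT10, against 11.82, 13.24, 12.40 and 12.69 at ZT22 (3.45-fold lower), and Septin9 differed by -1.48 (SE 0.21). Actn1 was the higher one (+0.88; its call was lost without ZT22a, adjusted p = 0.0537). Summed markers of sinusoidal endothelium (13.42 to 13.83 at ZT10, against 14.06 to 14.34 at ZT22) did not overlap between the times. The sums for stellate cells (13.95 to 14.40 at ZT10, against 14.64 to 15.08 at ZT22) and cholangiocytes (11.38 to 11.97 at ZT10, against 12.26 to 12.84 at ZT22) did not overlap either, but each rests mainly on 1 gene that was not called, Dcn and Tm4sf4. The mean log2 level overlapped between the times for stellate cell markers, but not for those of cholangiocytes or sinusoidal endothelium. Among the cholangiocyte markers Krt7 (+0.07) and Epcam (+0.08) had positive differences. The part of these cells in the counts was not tested.

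Of 23 genes of retinoid metabolism 4 were lower at ZT10. Dhrs3, which reduces retinal to retinol, had 12.26, 12.35, 12.20 and 12.25 at ZT10, against 13.58, 14.17, 14.16 and 14.38 at ZT22 (3.50-fold lower), and Dhrs9 had 3.53, 3.53, 3.49 and 3.30 at ZT10, under the background level, against 6.64, 6.12, 6.66 and 6.09 at ZT22. Of 24 genes of nucleoside salvage and purine breakdown 5 were lower and 1 was higher. Pnp, the purine nucleoside phosphorylase, had 9.28, 9.65, 9.25 and 9.75 at ZT10, against 11.39, 11.34, 11.78 and 11.72 at ZT22 (4.21-fold lower), while Upp2, a uridine phosphorylase, had 16.77, 16.38, 16.68 and 16.87 at ZT10, against 15.58, 14.02, 13.85 and 13.98 at ZT22 (4.98-fold higher). Pnp2 is a near copy of Pnp and may share its signal. Of 12 coenzyme Q genes Coq8a, a kinase-like protein of its synthesis, had 13.37, 13.14, 13.24 and 13.24 at ZT10, against 15.96, 15.86, 15.59 and 16.02 at ZT22 (6.11-fold lower), and Coq10b, a binding protein of coenzyme Q, had 11.22, 11.28, 11.46 and 11.41 at ZT10, against 8.86, 8.64, 8.49 and 8.40 at ZT22 (6.70-fold higher). Of 4 genes of glycine cleavage Gldc (-2.06) and Amt (-0.86) were lower, and of 6 linker histones 3 were lower. H1f2 differed by -1.96, H1f1 averaged 4.88 at ZT10, under the background level, against 5.97 at ZT22, and H1f3 (-0.90) lost its call without ZT10d, ZT22c or ZT22d (adjusted p up to 0.0825).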
